A study of Mus musculus with 5 samples.

Results

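Glutathione peroxidases, superoxide dismutases and catalase are the enzymes that remove superoxide, hydrogen peroxide and lipid peroxides. The 10 genes described here are Gpx1, Gpx2, Gpx3, Gpx4, Gpx7 and Gpx8, the dismutase genes Sod1, Sod2 and Sod3, and the catalase gene Cat. They were taken as the probe sets annotated to one of these symbols only, and all 10 were found among 22180 genes, each with 1 probe set. The set was selected on the mean signals of Gpx3, which were 1.94-fold lower in the knockout than in the wild type, so the knockout differences of the 10 genes are given as a description and were not tested.

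The study asked how loss of the membrane-anchored matrix metalloproteinase MMP14 from the epithelium alters gene expression in the young mammary gland. RNA of mammary epithelial cells from 4-week-old mice was hybridised to 5 Affymetrix arrays. The knockout group (2 arrays, genotype MMTV-Cre+/Mmp14(f/f)) had Cre together with floxed alleles of Mmp14, and the wild-type group (3 arrays) consisted of littermates (genotype Mmp14(f/f)) with these floxed alleles but lacking Cre, all congenic FVB/NJ. MMTV-Cre is driven by a viral promoter active in mammary epithelium. Other cells of a preparation may keep Mmp14, and these arrays do not show in which cells Cre acted. A Cre control without floxed alleles was not analysed here. Cells were freed from inguinal glands without their lymph node by collagenase and parted from stroma by centrifugation, without a sort. The labels call the samples biological replicates but do not say whether an array holds 1 mouse or a pool.

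Superoxide dismutases turn superoxide into hydrogen peroxide, which catalase and the glutathione peroxidases turn into water. GPX1 to GPX4 work at the expense of glutathione, carry selenocysteine in the active site and need selenium. GPX7 and GPX8 use cysteine and work in the endoplasmic reticulum. In the mammary gland the secreted peroxidase gene Gpx3 is known as a marker of hormone-sensing luminal cells, and adipose tissue is another known source of it.

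Upstream sequences are shown for Gpx3 and Gpx2, where the arrays of the genotypes did not overlap, and for Sod1, the member whose signal varied least over the 5 arrays. They are the 250 bases before the annotated start, from RefSeq on GRCm38.p6, written 5′ to 3′ on the strand of the gene. Capitals mark matches on either strand to the antioxidant response element core (TGACNNNGC), the GC box (GGGCGG) or the TATA box (TATAAA). The positions are chr11:54902604-54902853 (plus strand) for Gpx3, chr12:76795555-76795804 (minus strand) for Gpx2 and chr16:90220512-90220761 (plus strand) for Sod1.
Gpx3: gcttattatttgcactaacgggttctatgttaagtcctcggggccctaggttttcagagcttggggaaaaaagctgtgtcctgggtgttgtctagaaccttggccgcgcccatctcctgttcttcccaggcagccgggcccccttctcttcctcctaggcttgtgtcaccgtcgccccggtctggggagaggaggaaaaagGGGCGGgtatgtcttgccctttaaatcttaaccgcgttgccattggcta
Gpx2: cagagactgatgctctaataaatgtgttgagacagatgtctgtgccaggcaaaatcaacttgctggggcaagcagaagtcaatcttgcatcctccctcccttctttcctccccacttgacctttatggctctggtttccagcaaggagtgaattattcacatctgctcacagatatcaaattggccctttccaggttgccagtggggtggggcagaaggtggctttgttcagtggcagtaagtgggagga
Sod1: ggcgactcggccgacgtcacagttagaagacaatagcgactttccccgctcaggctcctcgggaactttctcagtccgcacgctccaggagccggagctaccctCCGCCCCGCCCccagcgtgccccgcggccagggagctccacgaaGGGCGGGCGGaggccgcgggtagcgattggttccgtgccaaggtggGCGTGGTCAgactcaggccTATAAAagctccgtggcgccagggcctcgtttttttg
Of the 10 genes, 9 had such a window, and Sod3 was not matched. Together the 9 genes had 12 windows. The antioxidant response element core was found in 1 of the 12, that of Sod1, and in 10.2% of the 32851 windows of all genes. The GC box was found in 8 of the 12 windows, against 32.7% of all windows. These 8 belong to 6 of the 9 genes, Gpx3, Gpx4, Gpx7, Sod1, Sod2 and Cat. The TATA box was in 1 of the 12 (Sod1), against 12.4%. Gpx4 has 4 annotated starts, of which 3 had a GC box, and windows of neighbouring starts overlap, as do adjacent GC boxes of Sod1. A match says only that these letters are present.

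Signals are log2 units, so a difference of 1 is a 2-fold change, and means are given ± SD for n = 2 knockout and n = 3 wild-type arrays. Differences are knockout minus wild type with the standard error (SE) of limma, a linear model fitted over all genes. Of the 22180 genes, 0% were called at a limma adjusted p of 0.05 (lowest adjusted p = 0.919; 288 genes, 1.3%, had an unadjusted p under 0.05). Mmp14 itself read 7.98 and 7.28 in the knockout against 8.15, 8.67 and 7.75 in the wild type. Its groups overlapped, with knockout minus wild type at -0.56 ± 0.39 (SE; limma adjusted p = 0.919). The position of its probes within the gene is unknown here, so the signal does not check the genotype. The array numbers in the labels form 2 runs, with knockout 1, wild type 1 and wild type 2 in run 1 and wild type 3 and knockout 2 in run 2. Knockout 2 stood apart from the other arrays on the first principal component, with a score of 25.3 against -12.5 to 4.63. Values of a gene can be exactly equal on several arrays, and 6930 genes had 5 different values, among them 6 of the 10 described here.

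Of the 10 genes, 8 had a lower mean in the knockout and 2 a higher mean, and over all genes 49.5% were lower and 46.3% higher. Both knockout arrays lay below all wild-type arrays for 1 gene, Gpx3 (2.8% of all genes), and above them for 1 gene, Gpx2 (2.63%). The groups overlapped for the other 8. The median difference of the 10 was -0.07, against 0.00 over all genes, and Gpx3 was the only one with means 1.5-fold or more apart, as 0.365% of all genes were. No count among the 10 is read as a result, since the genes were chosen with this contrast in view.

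Gpx3, the secreted peroxidase, read 7.19 in knockout 1 and 6.37 in knockout 2, against 8.10, 7.65 and 7.47 in wild type 1, 2 and 3. The highest value was that of wild type 1 and the lowest that of knockout 2. The gap between knockout 1 and wild type 3 was 0.27 log2 units, narrower than the spread of 0.63 within the wild type and of 0.82 within the knockout. The means were 6.78 ± 0.58 and 7.74 ± 0.32, a difference of -0.96 ± 0.35 (SE), the 24th most negative of 22180. Set array against array, the knockout was lower by 1.21-fold (knockout 1 against wild type 3) to 3.32-fold (knockout 2 against wild type 1). Within run 1 the Gpx3 difference was -0.68, and within run 2, with 1 array per genotype, it was -1.10. It was -0.55 without knockout 2 and -1.37 without knockout 1. The size of the Gpx3 difference thus turned on which knockout array was counted. Its sign was fixed by the choice of the gene, whose groups do not overlap. Fewer cells that make Gpx3 and less Gpx3 RNA per cell cannot be told apart in such bulk samples.

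**Figure D1:**
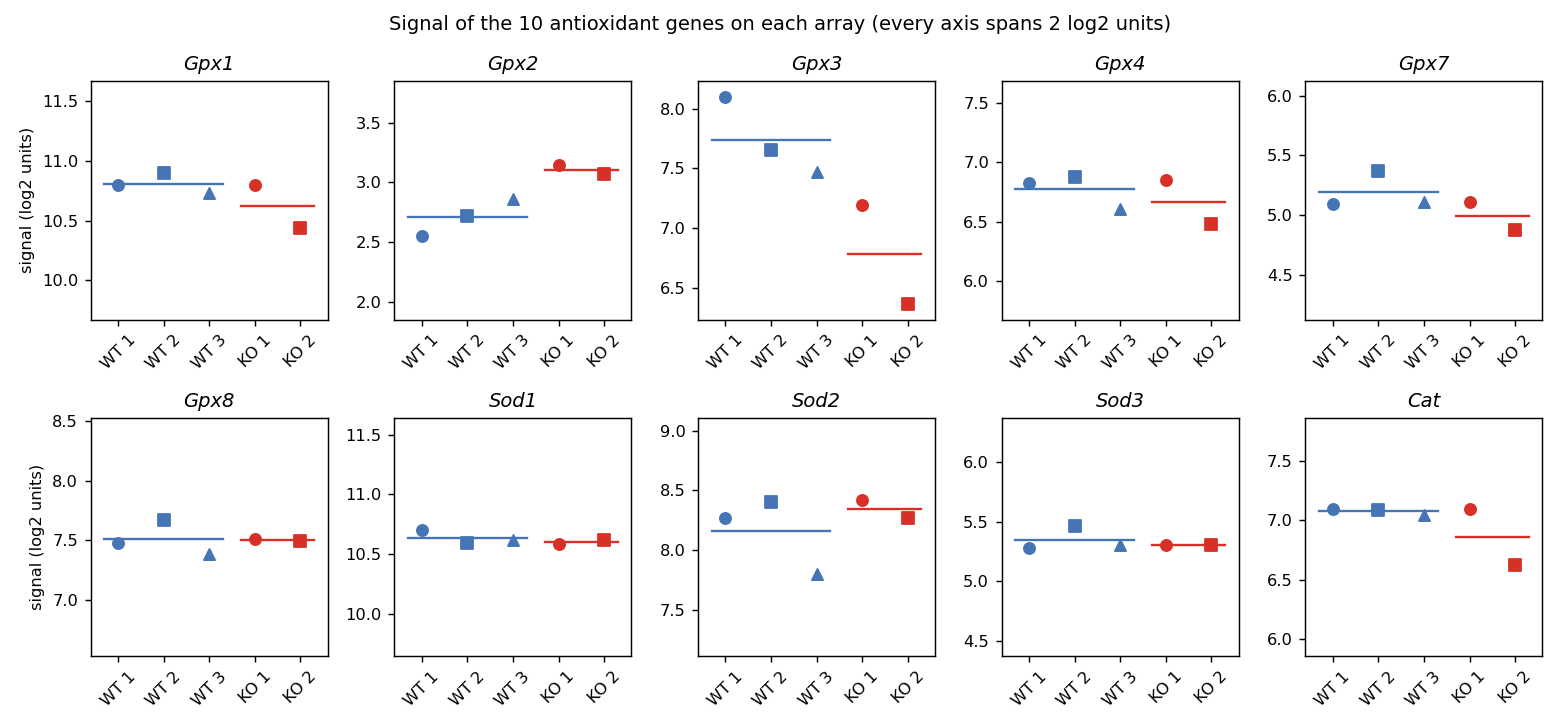
Log2 signal of each of the 10 genes on the 3 wild-type (WT, blue) and 2 knockout (KO, red) arrays, with a line at each group mean; every vertical axis spans 2 log2 units, and levels of different genes are not comparable. Gpx3 is the gene with both knockout arrays below all wild-type arrays, and Gpx2 the gene with both above.

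Among the other selenocysteine peroxidases, Gpx1, the ubiquitous cytosolic enzyme, read 10.80 and 10.44 in the knockout against 10.80, 10.90 and 10.74 in the wild type. Knockout 1 was exactly equal to wild type 1, and knockout 2 was below every other array. The difference of -0.19 ± 0.13 (SE) was -0.37 without knockout 1 and -0.01 without knockout 2, so it rested on knockout 2. Gpx4, which reduces lipid hydroperoxides in membranes and protects cells from ferroptosis, read 6.85 and 6.48 against 6.82, 6.88 and 6.61. Here too knockout 2 was lowest, with wild type 3, the other array of run 2, next. The Gpx4 difference of -0.11 ± 0.16 (SE) was smaller than its error and turned to 0.08 without knockout 2.

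Gpx2, the peroxidase typical of the gut epithelium, went the other way, at 3.15 and 3.07 in the knockout against 2.55, 2.72 and 2.86 in the wild type. The groups were apart by 0.20 between their nearest values, where the wild-type arrays spanned 0.31. The difference was 0.39 ± 0.11 (SE), with 0.51 within run 1 and 0.20 within run 2. Its mean signal was in the lowest 13.3% of genes, so Gpx2 is the 1 member under the 40th percentile used as a filter on dim genes, and without detection calls such a signal cannot be told from background. The pseudogene Gpx2-ps1, a related copy that could share signal with Gpx2, had overlapping groups and a difference of 0.04 ± 0.13 (SE). Gpx4 also has pseudogenes in the genome, and how far its probe set shares their signal is not known here.

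Of the cysteine peroxidases of the endoplasmic reticulum, Gpx7 read 5.11 and 4.88 in the knockout against 5.09, 5.37 and 5.11 in the wild type, where knockout 1 and wild type 3 were exactly equal and knockout 2 was lowest. The difference was -0.20 ± 0.13 (SE), with -0.12 within run 1 and -0.23 within run 2, and -0.08 without knockout 2. Gpx8 read 7.51 and 7.49 against 7.48, 7.67 and 7.39, so both knockout arrays lay inside the wild-type range, and the difference was -0.01 ± 0.10 (SE).

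Of the superoxide dismutases, Sod1, the copper and zinc enzyme of the cytosol, read 10.58 and 10.62 in the knockout against 10.70, 10.59 and 10.62 in the wild type, which gave -0.04 ± 0.04 (SE). Its 5 arrays spanned 0.12, against a median of 0.21 over all genes. Sod3, the extracellular enzyme, read exactly 5.31 on knockout 1, knockout 2 and wild type 3, against 5.28 and 5.46 on wild type 1 and 2, a difference of -0.04 ± 0.07 (SE). The SD of 0 in the knockout comes from these equal values. Sod2, the manganese enzyme of mitochondria, read 8.42 and 8.27 against 8.27, 8.40 and 7.80, and was the other member with a higher knockout mean, by 0.18 ± 0.22 (SE). Wild type 3 was the low array. Without it the difference was 0.01, and within run 2, where it is the only wild-type array, it was 0.47.

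Cat, the peroxisomal enzyme that splits hydrogen peroxide, read 7.09 in knockout 1 and 6.63 in knockout 2, against 7.09, 7.09 and 7.05 in the wild type. The wild-type arrays differed by only 0.05 and knockout 1 lay between them and 0.02 above their mean, while knockout 2 was 0.45 below it. The difference of -0.22 ± 0.16 (SE) was 0.00 within run 1, -0.42 within run 2 and 0.02 without knockout 2. Cat was therefore low on a single array, whereas Gpx3 was low on both knockout arrays.

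**Figure D2:**
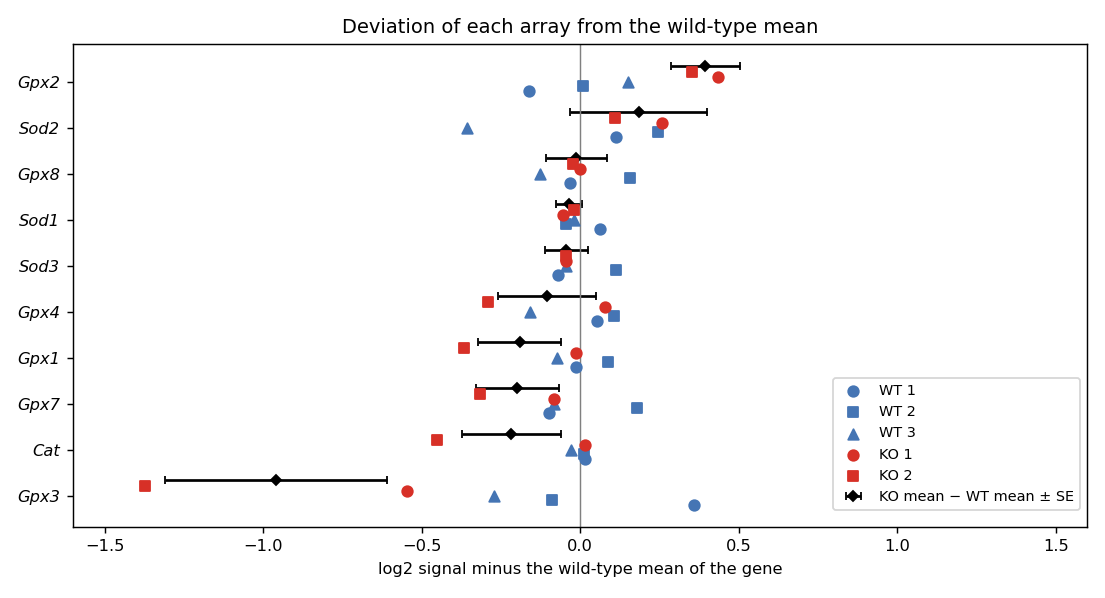
Log2 signal of each array minus the wild-type mean of the gene, with the knockout minus wild-type difference ± SE of limma as a black diamond, genes ordered by that difference. Knockout 2 is the lowest array for 5 genes (Gpx1, Gpx3, Gpx4, Gpx7 and Cat), and knockout 1 is lowest for 1 (Sod1).

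The 2 knockout arrays lay apart for some of the 10 genes, such as Gpx3 (knockout SD 0.58). They were close for others, such as Gpx8 (SD 0.01) and Sod3 (equal values). Knockout 2 lay below the wild-type mean for 8 of the 10 genes (48.3% of all genes), with a median deviation of -0.17, and knockout 1 for 6 (47.8% of all genes), with a median of -0.01. The signs within run 1 and within run 2 were the same for 6 genes, lower in both for Gpx1, Gpx3, Gpx4 and Gpx7 (17% of all genes) and higher in both for Gpx2 and Sod2 (16.1%). For Gpx4 the value within run 1 was 0.00 to 2 decimals. Among the wild-type arrays, Gpx3 and Sod2 were the most variable of the 10, with SDs of 0.32 each, above those of 96.4% and 96.1% of all genes. Cat, with an SD of 0.03, was the steadiest, at the 28.5th percentile.

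The genes whose values followed those of Gpx3 most closely were Dcpp2, Dmbt1, Epgn, Slc5a8 and Pcca. Likeness is the root mean square difference over the 5 arrays between values centred on the mean of each gene, among genes brighter than the median gene, and 5 arrays can rank it only loosely. It was 0.16 for Dcpp2, a secreted protein of saliva with near-identical paralogs, 0.18 for Dmbt1, a secreted mucosal glycoprotein, and 0.19 for Epgn, a ligand of the EGF receptor. For Slc5a8, a monocarboxylate transporter, it was 0.21 and for Pcca, a subunit of propionyl-CoA carboxylase, 0.22. Dcpp2, for example, read 5.11 and 4.09 in the knockout against 5.87, 5.57 and 5.66 in the wild type. These genes were picked for following Gpx3 on these arrays, so that their highest array (wild type 1) and lowest array (knockout 2) are those of Gpx3 follows from the choice. In Slc5a8 and Pcca knockout 1 was equal to a wild-type array. Of the other antioxidant genes, the nearest was Cat at 0.43. The values are centred but not scaled, so a gene that varies little cannot come near Gpx3, whatever its pattern. The root mean square deviation from the gene's own mean was 0.57 for Gpx3. For the other antioxidant genes it lay between 0.04 (Sod1) and 0.22 (Sod2). Whether they share the pattern of Gpx3 was not tested.

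**Figure D3:**
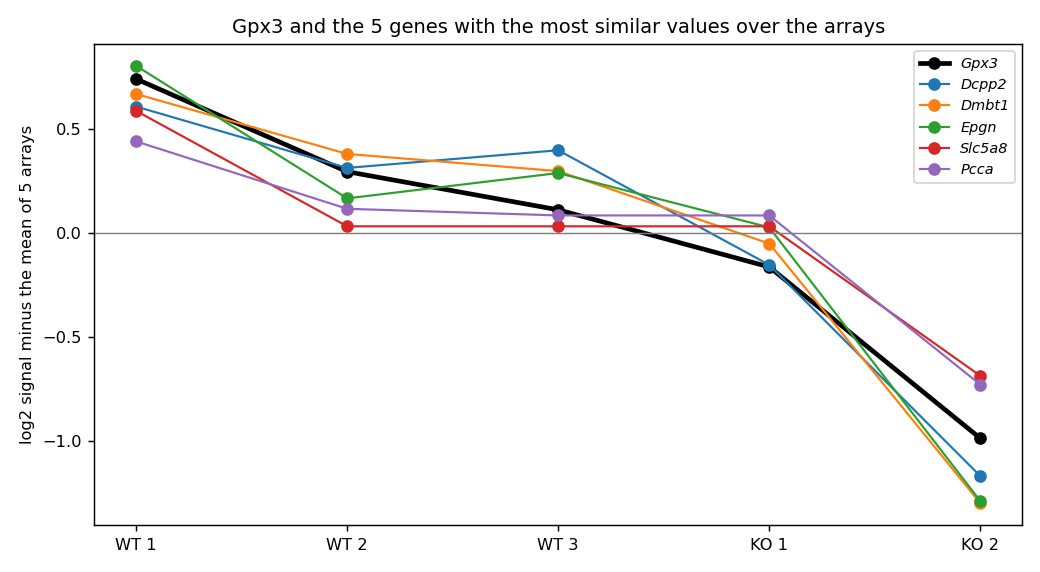
Log2 signal on each array minus the mean of the 5 arrays, for Gpx3 (black) and the 5 genes nearest to it; lines only join the values of a gene, and arrays of a genotype have no order. The genes were picked for this likeness, and all 6 are highest on wild type 1 and lowest on knockout 2.

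Other genes of glutathione and oxidant metabolism were taken from 10 lists that hold 116 genes, of which 103 were measured. None of the 103 passed limma's test at an adjusted p of 0.05 (0% of all genes), and 2, Selenos and Ggt5, had an unadjusted p under 0.05. The knockout mean was lower for 57 and higher for 40, with a median difference of -0.01. Without knockout 1 limma called 6 of them (7.92% of all genes) and without knockout 2 it called 6 (3.76%). Of these calls 11 of 12 were genes with equal wild-type values, such as Atox1, a copper chaperone. Atox1 was called lower by 0.21 without knockout 1 and higher by 0.35 without knockout 2, so its knockout arrays lay on either side of the wild type.

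Glutathione synthesis, recycling and NADPH supply feed the selenocysteine peroxidases. This list had a lower knockout mean in 13 of 15 measured genes and a higher one in 1, with a median of -0.06 and 0 called. Me1, malic enzyme, was 7.52 ± 0.43 in the knockout against 7.86 ± 0.14 (-0.33 ± 0.22, SE), Cth, which makes cysteine, was 4.99 ± 0.45 against 5.32 ± 0.21 (-0.33 ± 0.25, SE), and the dim Ggt5 differed by -0.06 ± 0.02 (SE). The genes split the knockout arrays, with 13 of 15 below the wild-type mean in knockout 2 (median -0.21) and 4 of 15 in knockout 1 (median 0.02). The mean of the list relative to the wild type was -0.24 in knockout 2 and -0.17 in wild type 3, both of run 2, and 0.06 in knockout 1.

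The selenocysteine peroxidases share the machinery that supplies and inserts selenium. The 10 genes of selenium supply and selenocysteine insertion had 5 higher and 4 lower means and a median of 0.02, with Pstk, a kinase of selenocysteine synthesis, at 0.08 ± 0.06 (SE), Lrp8, a receptor for selenoprotein P, at -0.08 ± 0.06 and Sepsecs, the synthase, at -0.15 ± 0.12. Of the 12 other selenoproteins, 9 were lower and 3 higher (median -0.02). Selenos, a protein of endoplasmic reticulum quality control, read 8.41 and 8.54 in the knockout against 8.65, 8.81 and 8.69 in the wild type. Both knockout arrays lay below the wild type (2.8% of all genes), with a difference of -0.24 ± 0.07 (SE; limma adjusted p = 0.919), -0.32 within run 1 and -0.15 within run 2. Selenof, another selenoprotein of that compartment, differed by -0.17 ± 0.11 (SE), with overlapping groups. Dio1, a deiodinase just above the filter on dim genes, differed by -0.03 ± 0.02 (SE).

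Peroxiredoxins, thioredoxins and glutaredoxins were evenly split, 7 of 14 higher and 7 lower (median 0.00). Prdx4, the peroxiredoxin of the endoplasmic reticulum, was the 1 gene of this list with both knockout arrays above all wild-type arrays (2.63% of all genes) and none had both below (2.8%). It was at 7.60 ± 0.05 against 7.52 ± 0.02, a difference of 0.07 ± 0.03 (SE; limma adjusted p = 0.919). Glrx5, of iron-sulphur cluster assembly, differed by -0.14 ± 0.10 (SE) and Prdx2 by 0.05 ± 0.03. The glutathione transferases were also split, 7 higher and 7 lower of 15 (median 0.00), with Gstp2 at 0.15 ± 0.10, Gsto2 at -0.06 ± 0.06 and Mgst3 at -0.21 ± 0.22 (SE). Gstp2 has a near-identical neighbour, Gstp1, so its signal may be shared.

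NRF2, the transcription factor that induces many antioxidant genes, and its regulators and targets had 6 of 11 higher and 4 lower (median 0.02), with Keap1, its inhibitor, at 0.17 ± 0.11 (SE), Ephx1, an epoxide hydrolase, at 0.08 ± 0.08 and Mafk, a partner, at 0.02 ± 0.04. The list of metallothioneins and of genes that handle copper, the metal Sod1 and Sod3 need, had 5 of 7 lower and 2 higher (median -0.06). Ccs, which loads copper into SOD1, was 4.78 ± 0.53 against 5.14 ± 0.10 (-0.36 ± 0.26, SE). It was 0.74 below the wild-type mean in knockout 2 and 0.01 above it in knockout 1. Atp7a, a copper pump, was at -0.12 ± 0.07 (SE) and Mt1 at 0.02 ± 0.02.

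Oxidant producers had 6 of 11 higher and 4 lower (median 0.02), with the dim Nox1 and Ncf1, of the NADPH oxidases, at 0.05 ± 0.03 and -0.08 ± 0.06 (SE) and Ero1b, an oxidase of the endoplasmic reticulum, at -0.29 ± 0.21. Genes of lipid peroxidation had 3 of 6 lower and 2 higher (median -0.01), with Alox5 at -0.13 ± 0.07, Alox12 at -0.03 ± 0.02 and Acsl4 at -0.04 ± 0.03 (SE). The remaining peroxidase genes, Gpx5 (dim, -0.17 ± 0.11) and Gpx6 (0.01 ± 0.08), had overlapping groups.

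**Figure D4:**
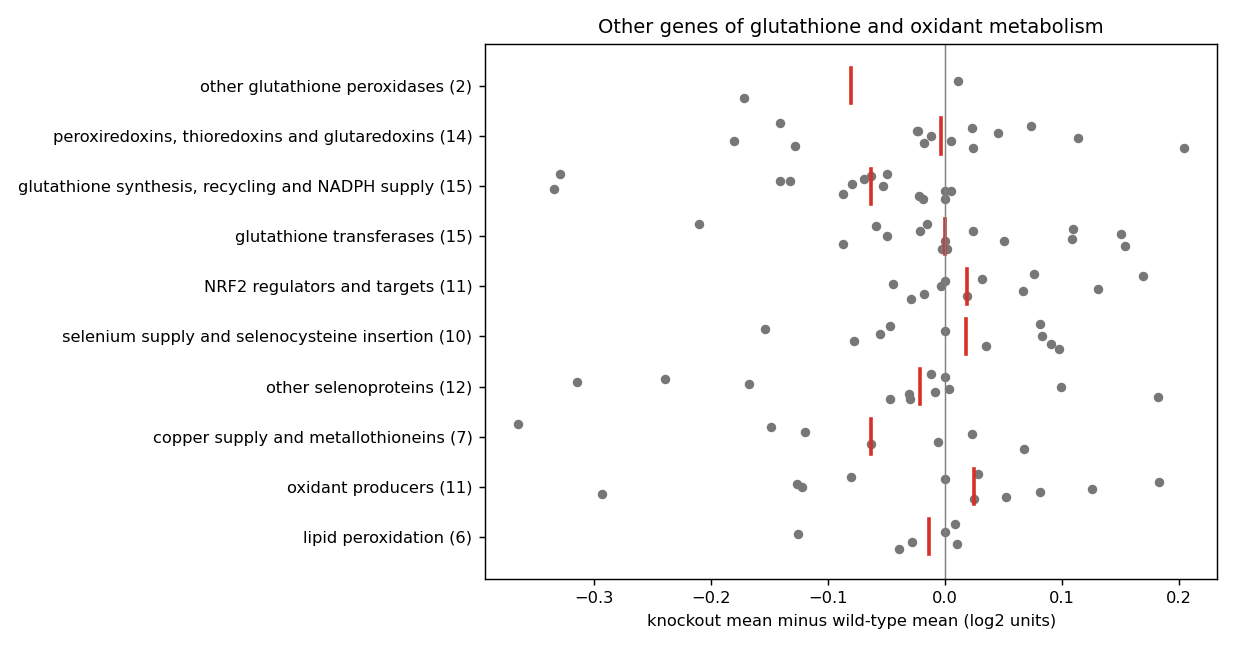
Knockout minus wild-type difference of mean log2 signal for each measured gene (grey point) of the 10 lists, with the median of each list as a red bar and the number of measured genes in parentheses. Values run from -0.36 (Ccs) to 0.20, and no gene was called by limma.

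Epithelial identity was checked with markers of cell types. The pan-epithelial genes were bright, with Krt8 between 11.34 and 11.48 and Epcam between 9.98 and 10.10 on the 5 arrays, and their list mean was 0.12 above the wild-type mean in knockout 1 and 0.10 below it in knockout 2. Fibroblast genes ran from bright (Dcn 10.21 to 10.71) to moderate (Fap 5.17 to 5.90), with 0 of 9 dim, so stromal RNA was present on every array. The part of these lists in the Gpx3 difference was not tested.

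The 8 measured hormone-sensing luminal genes other than Gpx3 had 5 lower and 3 higher means (median -0.08). Their list mean lay between -0.01 and 0.01 on the wild-type arrays, at 0.10 in knockout 1 and at -0.31 in knockout 2. Against the wild-type mean, 5 of the 8 genes were higher and 3 lower in knockout 1. In knockout 2, 2 were higher and 6 lower. The relation of this list to Gpx3 was not tested. Tnfsf11 was dim, and Prlr and Areg had no probe set of their own. Esr1, the oestrogen receptor, read 6.07 and 6.12 in the knockout against 5.86, 6.01 and 6.01 in the wild type. Pgr, the progesterone receptor, read 7.10 and 6.55 against 7.11, 7.10 and 7.10, and Prom1 read 7.33 and 6.09 against 7.26, 7.08 and 7.08.

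The 12 luminal progenitor and alveolar genes, 12 of them lower in the knockout mean (median -0.25), had list means of -0.19 in knockout 1 and -1.15 in knockout 2 against -0.33 to 0.32 in the wild type. The mean in knockout 2 rested largely on the milk protein genes Csn1s1 (-5.25), Csn2 (-3.25) and Lalba (-1.76), and the median deviation was -0.56 there and -0.05 in knockout 1. Csn2 also ran from 3.70 to 7.69 within the wild type. Adipocyte genes had 5 of 9 means higher in the knockout, with list means of -0.08 and 0.19 against -0.05 to 0.03. Of its genes, Fabp4, a fatty acid carrier that capillary endothelium also makes, was bright (10.53 to 11.35) and highest on knockout 2, and Pparg read 5.62 to 6.36 and Lipe 5.51 to 5.97. Adipoq (4.54 to 4.77) and Plin1 (4.07 to 4.09) were near the median gene of 4.42, and Lep and Cidec were dim. Fibroblast genes had 7 of 9 higher and list means of 0.06 and 0.23 against -0.28 to 0.35. Endothelial genes split the knockout arrays, at -0.47 and 0.20 against -0.21 to 0.27, and pericyte genes did so at -0.26 and 0.26 against -0.17 to 0.26. Macrophage genes had 8 of 10 lower, with -0.04 and -0.22 against -0.23 to 0.18, and lymphocyte genes had 7 of 7 lower, with -0.33 and -0.29 against -0.27 to 0.35. Basal genes had 6 of 8 higher, with 0.07 and 0.22 against -0.13 to 0.26. Skin keratinocyte genes were high on wild type 1 (0.72), the array with the highest Gpx3, and between -0.38 and -0.34 on the other 4. That mean rested largely on Krt10 (8.54 on wild type 1, 5.34 to 5.50 elsewhere) and Krt1 (6.94, and 4.14 to 4.36). Of the 8 genes, 5 were dim, among them Krt25, which was highest on wild type 3. Only 3 of 9 erythroid genes were measured, at -0.05 and 0.11 against -0.02 to 0.03.

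**Figure D5:**
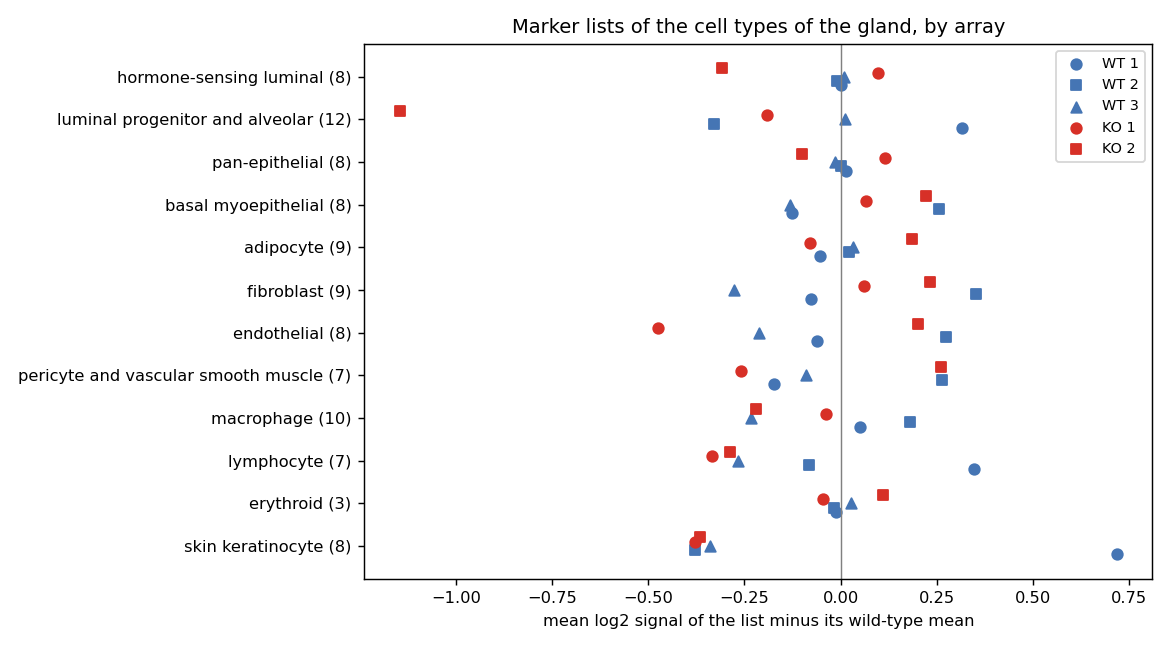
Mean log2 signal of each marker list on each array minus its wild-type mean, with the number of measured genes in parentheses. Knockout 2 is lowest for the luminal progenitor and alveolar (-1.15, median deviation -0.56), hormone-sensing luminal (-0.31) and pan-epithelial (-0.10) lists. The mean of -1.15 is carried largely by Csn1s1, Csn2 and Lalba. Wild type 1 is highest for the skin keratinocyte list (0.72), a mean carried largely by Krt10 and Krt1.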

How the data were processed

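Values were analysed for 5 arrays, 2 knockout and 3 wild type, from 10 ng of total RNA each. The authors deposited a log2 signal for every probe set, made with RMA (background correction, quantile normalisation and probe summary), per the submitters' processing notes, which also name limma; neither versions nor array model nor genome build could be taken from the labels. Of 41345 probe sets, 23521 have 1 gene symbol in the platform annotation, 1814 have several and 16010 are not listed; those with 1 symbol were used, the brightest per gene over all arrays, which left 22180 genes. Array medians lay between 4.24 and 4.29.

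Differences were fitted with limma 3.58.1 (functions lmFit and eBayes of R 4.3.3, two-sided tests without covariates). Adjustment was by Benjamini-Hochberg over 22180 genes, with a threshold of 0.05. The fit was checked on 10 simulated data sets of independent normal values. These sets had no equal values, runs or outlying array, so the check does not cover such features of the data. The number of arrays limits the precision, and a p-value reflects only the spread of these samples, which may be technical. The genes and lists were chosen with earlier results of these data known. Named are the 10 genes, Mmp14, up to 3 genes per redox list with the smallest unadjusted p, the 5 genes most like Gpx3 and the markers needed to state a level; Atox1 was named after its values were seen. List symbols absent from the annotation were looked up in RefSeq genes of GRCm38.p6. Values equal to 6 decimals were taken as equal. Alternatives were leaving out each array, blocks for the replicate number and for the run of array numbers, renormalisation, median centring, averaging probe sets, a filter on dim genes, an intensity trend and array weights.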

Additional observations from a re-analysis of the deposited data

How the results depend on the processing

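With 1 array left out the Gpx3 difference lay between -1.37 and -0.55. Its sign, like that of Gpx2, could not turn when an array was left out or within a run, because the groups do not overlap, and is no sign of stability. Gpx1 (lower), Gpx7 (lower) and Sod2 (higher) kept their sign in all 16 alternatives, and Gpx2 has 15, since the filter on dim genes removes it. Cat kept its sign in 14, Sod3 in 14, Gpx4 in 15, Gpx8 in 13 and Sod1 in 15 of 16. These counts overstate stability. Each gene has 1 probe set, so averaging probe sets, the filter on dim genes and the intensity trend could not change its difference. The replicate block gave the same differences as leaving out wild type 3. Gpx1 shrank to -0.01 without knockout 2, and Sod2 to 0.01 without wild type 3. Limma called 0 genes, and 0 of the 103 genes of the redox lists, in every alternative that kept all 5 arrays and when a wild-type array was left out; leaving out 1 array gave 0 to 1757 genes over all and 0 to 6 of the redox lists, the calls arising without knockout 1 (1757 and 6) or without knockout 2 (835 and 6). There the remaining knockout array is taken to vary as wild-type arrays do, and equal wild-type values lower the estimated spread. With the replicate number of the labels as a block, Gpx3 was at -1.09 and 0 genes were called; same-numbered arrays had deviations from their group means that correlated at 0.25 for number 1, whose arrays are also in the same run, and at -0.04 for number 2, and 2 pairs do not settle whether the numbers pair the samples. With the run of array numbers as a fixed block Gpx3 was at -0.86. Signals near background, as for Gpx2, limit what can be said of dim genes.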
